A study of Mus musculus with 21 samples.

Results

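The Cyp2 family of the mouse was described here through the open chromatin at its genes in liver. Members were the protein-coding autosomal genes of the mm9 annotation (GENCODE vM1) whose symbol is Cyp2 followed by a letter and a number, which gave 47 of 22380 protein-coding genes. Overlapping peaks of the 18 livers (1 bp or more) were joined, giving 68362 regions, and the 138 regions in a Cyp2 gene or within 10 kb of one were taken. The genes fell into 13 subfamilies. Cyp2c had 15 genes, Cyp2d 8, Cyp2j 7, Cyp2b 5 and Cyp2a 4, and the other 8 subfamilies had 1 gene each.

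The samples were livers of single, untreated CD-1 male mice aged 8 to 10 weeks with an intact pituitary, profiled by DNase-seq, in which short fragments freed by light DNase I digestion mark open chromatin. A mobility shift assay on part of each liver placed it in the class STAT5_High (8 livers) or STAT5_Low (10 livers) by the DNA-binding activity of STAT5, the factor that growth hormone pulses activate, at the time of death. The comparison asks how open chromatin differs between a natural pulse and the interval between pulses. A further 3 livers of the 21, titled outlier because their profile looked like the other class, were not analysed here, so the classes compared were formed in part by the measurement itself. Livers carried label prefixes of 3 collections, G74A (2 STAT5_High, 5 STAT5_Low), G92 (3 and 2) and G99 (3 and 3), whose meaning the labels do not give.

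Cytochromes P450 are haem enzymes of the endoplasmic reticulum that insert oxygen into drugs, steroids, bile acids, retinoids and fatty acids, with electrons passed on by Por, the P450 reductase. The Cyp2 family arose largely by tandem duplication, so that many members lie side by side with near-identical paralogs. In mouse liver several members differ between the sexes, and this difference follows the pattern of growth hormone release, pulsed in males and more even in females.

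Near-identical promoters matter for these data because, per the file headers, the reads were uniquely mapped. The stretches of 250 bases before the annotated start of the Cyp2c genes Cyp2c40, Cyp2c69, Cyp2c67 and Cyp2c68 and of Cyp2b9 and Cyp2b13 are shown for this reason, from the mm9 reference and in the direction of the gene. Capitals mark bases covered by at least 1 stretch of 40 bases, the tag size, that occurs once in the genome; lower case bases lay in no tag that could be placed.
Cyp2c40, no peak, chr19:39887305-39887554, minus strand: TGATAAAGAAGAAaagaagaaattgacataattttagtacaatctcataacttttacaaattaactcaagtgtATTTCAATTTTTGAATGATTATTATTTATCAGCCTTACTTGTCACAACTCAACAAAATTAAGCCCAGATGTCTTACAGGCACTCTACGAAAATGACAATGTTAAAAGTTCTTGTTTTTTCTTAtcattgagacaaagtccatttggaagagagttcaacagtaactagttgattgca
Cyp2c69, no peak, chr19:39961260-39961509, minus strand: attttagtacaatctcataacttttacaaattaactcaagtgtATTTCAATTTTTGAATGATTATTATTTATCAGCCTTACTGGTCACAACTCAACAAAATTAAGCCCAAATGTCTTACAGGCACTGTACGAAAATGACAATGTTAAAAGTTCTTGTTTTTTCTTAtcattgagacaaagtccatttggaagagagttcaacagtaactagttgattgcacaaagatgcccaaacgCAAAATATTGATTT
Cyp2c67, promoter peak in 18 livers, chr19:39723542-39723791, minus strand: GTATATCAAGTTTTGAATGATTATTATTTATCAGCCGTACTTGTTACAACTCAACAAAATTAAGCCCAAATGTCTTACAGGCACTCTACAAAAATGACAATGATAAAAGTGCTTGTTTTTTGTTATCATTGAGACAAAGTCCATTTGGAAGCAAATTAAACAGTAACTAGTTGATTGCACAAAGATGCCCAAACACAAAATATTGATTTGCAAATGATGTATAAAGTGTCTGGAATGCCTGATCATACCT
Cyp2c68, promoter peak in 18 livers, chr19:39815545-39815794, minus strand: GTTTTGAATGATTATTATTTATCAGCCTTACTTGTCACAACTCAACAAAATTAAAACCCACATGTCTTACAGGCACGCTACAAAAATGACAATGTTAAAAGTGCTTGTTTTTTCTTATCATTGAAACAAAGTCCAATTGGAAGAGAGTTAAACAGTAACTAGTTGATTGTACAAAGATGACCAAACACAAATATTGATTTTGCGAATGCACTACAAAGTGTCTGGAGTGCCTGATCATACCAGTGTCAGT
Cyp2b9, no promoter peak, chr7:26958180-26958429, plus strand: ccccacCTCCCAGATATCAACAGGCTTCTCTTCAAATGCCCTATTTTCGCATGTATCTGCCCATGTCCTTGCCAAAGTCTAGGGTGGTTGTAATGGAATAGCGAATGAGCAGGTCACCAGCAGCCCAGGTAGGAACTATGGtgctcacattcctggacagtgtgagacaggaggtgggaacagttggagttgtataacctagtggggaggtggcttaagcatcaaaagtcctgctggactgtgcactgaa
Cyp2b13, no promoter peak, chr7:26846264-26846513, plus strand: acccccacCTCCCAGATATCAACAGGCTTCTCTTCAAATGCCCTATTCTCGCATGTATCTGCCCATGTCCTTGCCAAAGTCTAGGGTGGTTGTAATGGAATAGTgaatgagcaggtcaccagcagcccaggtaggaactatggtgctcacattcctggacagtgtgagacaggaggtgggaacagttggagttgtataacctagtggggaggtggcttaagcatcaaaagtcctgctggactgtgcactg

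Over the columns that aligned, the Cyp2c40 and Cyp2c69 stretches were 98.6% identical (217 of 220) and the Cyp2b9 and Cyp2b13 stretches 99.2% (246 of 248). Cyp2c67 and Cyp2c68 were 90.2% identical to each other, and every one of their printed bases was covered by a unique 40-base stretch. In Cyp2c40 54.4% of the bases were covered, in Cyp2c69 54.8%, in Cyp2b9 54% and in Cyp2b13 38.4%. The letters CAAAGTCCA, a form of the site of the liver factor HNF4 and searched on both strands, stood in all 4 Cyp2c stretches, and in Cyp2c40 and Cyp2c69 they fell in lower case. Of the 250 bases before the start, 6 of the 47 Cyp2 genes held these letters (12.8%: Cyp2c40, Cyp2c65, Cyp2c67, Cyp2c68, Cyp2c69 and Cyp2c70), against 0.406% of the 21418 genes searched. Because paralogs share their promoters by descent, these 6 are not independent cases.

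Sequences at 3 regions on which the comparison of the classes turned are shown next, from the plus strand of mm9 except for the Cyp2c70 promoter, which runs along the gene. Capitals mark matches to any of 5 motifs searched on both strands. These were TTCNNNGAA (STAT5), TGTTTAC (FOXA), TTGCGCAA (C/EBP), CAAAGTCCA (HNF4) and CTTNNNAAG. The last holds the letters of the STAT5 motif in another order and is not a STAT5 site.
Cyp2c70, the 250 bases before the start, minus strand, chr19:40261824-40262073: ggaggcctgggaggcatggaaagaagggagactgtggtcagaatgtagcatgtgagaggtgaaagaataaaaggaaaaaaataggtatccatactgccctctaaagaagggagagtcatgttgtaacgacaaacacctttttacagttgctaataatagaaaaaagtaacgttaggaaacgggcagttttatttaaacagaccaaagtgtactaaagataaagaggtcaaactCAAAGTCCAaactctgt
Region between Cyp2d11 and Cyp2d10, chr15:82232060-82232359: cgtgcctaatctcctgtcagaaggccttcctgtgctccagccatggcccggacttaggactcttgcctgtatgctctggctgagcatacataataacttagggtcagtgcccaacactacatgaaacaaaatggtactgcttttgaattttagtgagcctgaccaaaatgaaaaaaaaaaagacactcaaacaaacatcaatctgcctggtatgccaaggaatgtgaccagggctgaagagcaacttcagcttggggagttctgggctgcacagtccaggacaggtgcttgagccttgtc
Region downstream of Cyp2w1, chr5:139840479-139840778: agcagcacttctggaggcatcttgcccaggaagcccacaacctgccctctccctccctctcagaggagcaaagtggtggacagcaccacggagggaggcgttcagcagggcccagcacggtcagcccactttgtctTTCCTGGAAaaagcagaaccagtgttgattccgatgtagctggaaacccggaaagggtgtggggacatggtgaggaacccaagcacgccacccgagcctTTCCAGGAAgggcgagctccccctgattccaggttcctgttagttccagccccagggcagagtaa

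The Cyp2c70 stretch held the HNF4 letters next to the start. The region downstream of Cyp2w1 held TTCNNNGAA 2 times, while the Cyp2d region held none of the 5 motifs. Among 300-base windows around the summit, TTCNNNGAA was in 15 of the 138 Cyp2 regions (10.9%) and in 12.2% of all 68362. The HNF4 letters were in 7 Cyp2 windows (5.07%, against 1.87% of all), TGTTTAC in 12 (8.7%, against 7.42%), CTTNNNAAG in 21 (15.2%, against 10.1%) and TTGCGCAA in 1 (0.725%, against 0.222%). CTTNNNAAG also stood within 250 bases before the start of 9 Cyp2 genes (19.1%, against 7.78% of all genes), 7 of them the Cyp2d genes Cyp2d9, Cyp2d10, Cyp2d11, Cyp2d12, Cyp2d26, Cyp2d34 and Cyp2d40, which are paralogs. A match is a description of the letters and not a bound site.

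Each liver is 1 library, and p-values therefore measure the spread between individual livers. Libraries held 12890880 to 23395665 tags and lists 18673 to 45144 peaks. One library stood apart: STAT5_High replicate 4 had the shortest list, although its 15578398 tags were within the range of the others, and results that turn on it are also given without it. Without it the median log2 difference of all tested regions in the pileup comparison below was -0.03 rather than -0.17. Promoter peaks of hepatocyte genes were in all 18 livers for 8 of 10 markers, Alb among them, and at 0 only for Serpina1a. Of markers of other cell types, 0 of 5 macrophage promoters had a peak in any liver. Each liver had a promoter peak at 1 to 3 of 5 endothelial and 0 or 1 of 4 stellate markers. The same held for 1 of 4 cholangiocyte and 0 or 1 of 4 lymphocyte markers. Stab2 and Sox9 had one in all 18 livers, Reln in 17, Tek in 7, Kdr in 4, Ptprc in 2 and Pecam1 in 1. The other listed markers of these types, among them Cdh5, Lrat, Krt19 and Cd3e, were at 0. A peak of fewer cells and a weaker peak in each cell cannot be told apart in whole liver. Peak numbers are skipped in every list (476 to 529 numbers), and in 16 of 18 livers a skipped number fell between 131003225 and 131010532 on chromosome 3, a stretch that holds the start of Cyp2u1. The Cyp2u1 promoter was therefore not analysed here, and it counts below as a promoter with no listed peak. At Cyp2d22 numbers were skipped in 4 livers, outside its promoter.

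The shares of Cyp2 regions open in every liver and in 1 liver only were near those of all regions. The median Cyp2 region had a peak in 11 livers, against 8 for all regions. A smaller share of Cyp2 genes than of all genes had a promoter open in every liver. Of the 138 regions, 25 (18.1%) were open in every liver and 27 (19.6%) in no more than 1, against 17.2% and 21.6% of all regions. By place, 65 were intergenic, 41 lay within 1 kb of an annotated start, of any gene, 28 were in introns, 2 in untranslated and 2 in coding exons. A promoter peak in 1 or more livers was present at 25 of 47 Cyp2 genes (53.2%), against 55.8% of autosomal genes, and in all 18 livers at 9 (19.1%), against 30.3%. Those 9 were Cyp2c39, Cyp2c67, Cyp2c68, Cyp2c70, Cyp2d10, Cyp2e1, Cyp2f2, Cyp2j5 and Cyp2r1. At 8 genes (17%, against 25.3%) no region lay within 10 kb: Cyp2a5, Cyp2b23, Cyp2c40, Cyp2c69, Cyp2j8, Cyp2j11, Cyp2j12 and Cyp2j13.

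The number of Cyp2 regions with a peak ran from 36 to 83 in STAT5_High livers (median 74.5) and from 68 to 98 in STAT5_Low livers (median 81.5). The groups overlapped, and the 36 was STAT5_High replicate 4, followed by 70. STAT5_Low livers also had the longer lists, with a median of 38022.5 peaks against 35423.5, and each liver's share of occupied regions that were Cyp2 regions ran from 0.198% to 0.25%. In G74A the medians were 77 and 79, in G92 70 and 81, and in G99 81 and 86, STAT5_High before STAT5_Low. Of the 23 Cyp2 regions with a peak in 17 livers, 19 lacked it in STAT5_High replicate 4. A set of 27 regions had peaks in every STAT5_High liver and 52 in every STAT5_Low liver. Peaks were in STAT5_High livers only at 13 regions and in STAT5_Low livers only at 27. The same counts over all regions are not given here, and the classes differed in number of livers and list length. No trait of the Cyp2 regions can therefore be read from these counts.

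**Figure D1:**
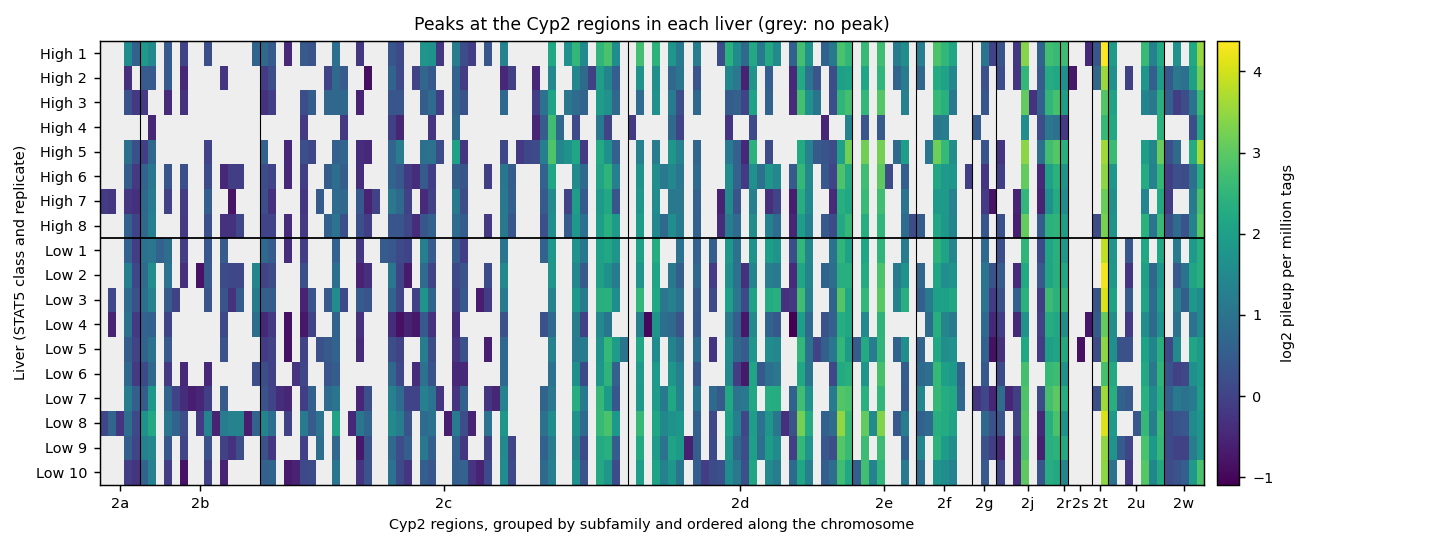
Peaks at the 138 Cyp2 regions (columns, by subfamily) in the 18 livers (rows, STAT5_High above the line), coloured by log2 pileup per 1000000 tags, with grey where a liver had no peak. The row of STAT5_High replicate 4 holds 36 peaks, and STAT5_Low replicate 8 holds the most, 98, including 13 of the 15 Cyp2b regions.

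The pileup, the number of extended tags over a peak's summit, was divided by the tags of its library and given per 1000000 tags (ppm below), and the fold enrichment is the ratio of the pileup to the background that the same library has nearby. The median level of a subfamily's highest region ran from 0.724 ppm for Cyp2s to 10.2 for Cyp2t in STAT5_High livers, and from 0.598 to 11.6 in STAT5_Low livers. That Cyp2t region lay at the promoter of the neighbouring gene Egln2, with 5.91, 10.2 and 20.8 ppm (lowest, median, highest) in STAT5_High and 6.86, 11.6 and 19.3 in STAT5_Low livers. This region was the strongest of the 138, its groups overlapped (-0.25 ± 0.23 on the log2 scale, STAT5_High minus STAT5_Low, limma adjusted p = 0.587; 0.05 by fold enrichment), and Cyp2t4 itself had 2 regions within 10 kb and no promoter peak.

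Cyp2e1, which oxidises ethanol and small solvents, had 8 regions and its promoter was open in all 18 livers. The Cyp2e1 promoter reached 1.35, 6.48 and 9.43 ppm in STAT5_High and 5.51, 6.03 and 10.2 in STAT5_Low livers, with median fold enrichments of 10.1 and 9.01. The groups overlapped, and the 1.35 was again STAT5_High replicate 4. Cyp2r1, a vitamin D hydroxylase, had a single region, its promoter, in all 18 livers, at 0.899, 3.6 and 6.44 against 2.64, 4.02 and 5.49 ppm. Cyp2f2, known for oxidising naphthalene, had 7 regions and a promoter at 2.12, 4.7 and 9.01 against 3.36, 5.11 and 5.92 ppm. At these 3 promoters the log2 differences were -0.20 ± 0.25 (SE), -0.25 ± 0.25 and -0.01 ± 0.23, STAT5_High minus STAT5_Low, with adjusted p of 0.668, 0.617 and 0.975 by limma. Without STAT5_High replicate 4 all 3 turned positive, to 0.09, 0.02 and 0.15 (limma adjusted p of 0.975, 0.997 and 0.924), so no direction can be read from them.

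In Cyp2j, a subfamily of fatty acid epoxygenases, 3 of 7 genes had regions. Cyp2j5 had 5 regions and a promoter peak in all 18 livers, Cyp2j6 1 region with a peak in 15 livers and Cyp2j9 2 regions with a promoter peak in 11 livers. The highest Cyp2j level was at an intergenic region 5277 bp beyond the 3′ end of Cyp2j5 (chr4:96288792-96290187), with 3.02, 8.34 and 10.7 ppm in STAT5_High and 3.29, 6.2 and 8.12 in STAT5_Low livers. In 5 STAT5_High livers it was above every STAT5_Low liver, but the mean difference was 0.29 ± 0.23 on the log2 scale (limma adjusted p = 0.553), 0.47 without STAT5_High replicate 4 (adjusted 0.166) and -0.04 by fold enrichment (adjusted 0.937). Tags in the 10 kb around this region, centred on each liver's median region, were higher in STAT5_High (0.50, limma adjusted p = 0.0106), while uncentred they were not called (0.34, adjusted 0.261). In the centred fit 963 of all 11748 regions with a peak in every liver were called higher in STAT5_High.

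All 8 Cyp2d genes had at least 1 region, 28 in all. These were Cyp2d11 with 8, Cyp2d10 and Cyp2d22 with 7 each, Cyp2d9 with 5, Cyp2d40 with 4, Cyp2d26 with 3 and Cyp2d12 and Cyp2d34 with 1 each, where regions between neighbours count for both genes. Promoter peaks were in 18 livers at Cyp2d10, in 17 at Cyp2d22, Cyp2d26 and Cyp2d40, and in 5 at Cyp2d9, a steroid hydroxylase of male mouse liver, 2 STAT5_High and 3 STAT5_Low. Cyp2d9 also had an intergenic region 2038 bp away that was open in all 18 livers, at medians of 3.24 and 3.96 ppm. Over all livers with a peak, the Cyp2d region with the highest median was a promoter region of Cyp2d40 (chr15:82593871-82594435), with 3.95, 4.97 and 6.8 ppm in 7 STAT5_High and 3.93, 5.77 and 9.42 in 10 STAT5_Low livers. The Cyp2d26 promoter was close to it, with 4.04, 5.14 and 7.25 ppm in 7 STAT5_High and 4.76, 6.11 and 11.3 in 10 STAT5_Low livers. The groups overlapped at both, and with the 17 livers that had a peak, all but STAT5_High replicate 4, the log2 differences were -0.06 ± 0.21 and -0.29 ± 0.21 (SE, limma adjusted p of 0.909 and 0.57).

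Of the 15 Cyp2c genes, 13 had regions, 46 in all. Cyp2c44 and Cyp2c70 had 7 each, Cyp2c29 6, Cyp2c39 5, Cyp2c50, Cyp2c55, Cyp2c67 and Cyp2c68 3 each, Cyp2c37, Cyp2c38, Cyp2c54 and Cyp2c66 2 each and Cyp2c65 1. Promoter peaks of the others were in 17 livers at Cyp2c29 and Cyp2c50, 16 at Cyp2c38, 10 at Cyp2c54, 3 at Cyp2c37, 1 at Cyp2c44 and Cyp2c55 and 0 at Cyp2c65 and Cyp2c66. Cyp2c44, an arachidonate epoxygenase, was open inside the gene rather than at its annotated start. Its intron region (chr19:44099213-44099914) had the highest median of the subfamily over all 18 livers, at 1.03, 3.88 and 7.02 ppm in STAT5_High and 2.05, 4.86 and 6.96 in STAT5_Low livers (log2 difference -0.29 ± 0.27, limma adjusted p = 0.592; -0.03 without STAT5_High replicate 4).

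Cyp2a and Cyp2b had no region open in all 18 livers. Cyp2a12 had 2 regions, both promoter regions, the stronger in 17 livers at medians of 1.43 and 1.72 ppm, Cyp2a4 had 2 regions in 2 and 4 livers, and Cyp2a22 had 1 region in 1 liver. Cyp2b10, the phenobarbital-induced gene that the receptor Nr1i3 controls, had 8 regions, of which 2 at its starts had a peak at 1 or both in 4 of 10 STAT5_Low livers and in 0 of 8 STAT5_High livers. Each of these 2 had a peak in only 3 livers and was not tested. The authors' list called on the pooled STAT5_High tags held a peak at both. The highest region of Cyp2b10 lay 7741 bp from the start, at 0.706, 2.08 and 2.9 ppm in 7 STAT5_High livers and 1.5, 2.5 and 4.6 in 10 STAT5_Low livers. Cyp2b13 had 4 regions, Cyp2b9 2 and Cyp2b19 1. STAT5_Low replicate 8 had a peak at 13 of 15 Cyp2b regions, and the other STAT5_Low livers had 4 to 10.

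The genes Cyp2g1, Cyp2s1 and Cyp2w1 are known mainly from tissues other than liver. None of the 3 had a promoter peak of its own in any liver. Cyp2g1 had 3 regions, the most widely open in 17 livers at medians of 1.25 and 1.6 ppm, and Cyp2s1 had 3 regions in at most 2 livers at 0.724 ppm or less. Cyp2w1 had 5 regions, all outside the gene, of which 2 were open in all livers and 2 others lay at the promoter of Cox19. Cyp2u1, a fatty acid hydroxylase, had 7 regions, and the highest lay 9089 bp from its start, at 3.74, 5.22 and 8.72 against 3.25, 4.88 and 6.12 ppm.

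Of 7 genes known to be higher in female than in male mouse liver (Cyp2a4, Cyp2b9, Cyp2b10, Cyp2b13, Cyp2c39, Cyp2c40 and Cyp2c69), 5 had a region in these male livers and 2, Cyp2b10 and Cyp2c39, a promoter peak. Cyp2c39, a retinoic acid hydroxylase, had it in all 18 livers. Of 40-base stretches between 250 bases before and 50 after the start, 13.7% occurred once in the genome at Cyp2b13, 26.7% at Cyp2b9, 27.7% at Cyp2c40 and 36% at Cyp2c69, and these were the 4 Cyp2 promoters under 50% (8.51%, against 6.33% of all promoters). All 4 belong to the female list and lacked a promoter peak, so closed chromatin in males and reads that could not be placed cannot be told apart there. Cyp2a4 (58.7%) and Cyp2a5 (66.3%) came next, with no promoter peak either. By contrast the promoters of Cyp2b23, Cyp2j8, Cyp2j11, Cyp2j12 and Cyp2j13 were 100% unique and also had none. In the gene bodies, less than 50% was unique in Cyp2a4, Cyp2a5, Cyp2c40 and Cyp2c68, with 44.4% in Cyp2a5 the lowest. The regions themselves had a median of 99.7% unique stretches, as peaks need placed reads.

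**Figure D2:**
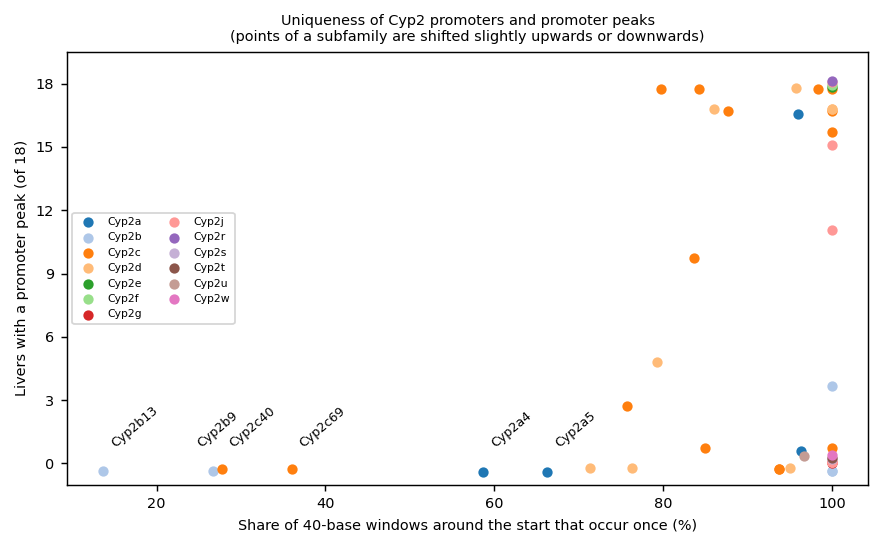
Share of 40-base stretches around the annotated start that occur once in the genome (x axis, %) against the number of livers with a promoter peak (y axis, of 18) for the 47 Cyp2 genes, coloured by subfamily. The 6 labelled promoters, from Cyp2b13 at 13.7% to Cyp2a5 at 66.3%, have no promoter peak, and promoters at 100% range from 0 to 18 livers.

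No Cyp2 region passed the test for having a peak more often in one class. Of the 138 regions, 31 had a peak in 5 to 13 livers and were tested by two-sided Fisher's exact test with Benjamini-Hochberg adjustment over 15631 regions. The count was 0 of 31 in each direction, where 0.979% of all tested regions were called higher in STAT5_High and 0.134% higher in STAT5_Low. At an unadjusted p under 0.05, 2 of the 31 leaned to STAT5_High and 3 to STAT5_Low, where 940 and 1265 of all 15631 did. By direction alone 9 and 22 of the 31 did, for which no count over all regions is given here.

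The smallest p was at the region between Cyp2d11 and Cyp2d10 shown above (chr15:82232010-82232696, 4928 bp from the Cyp2d10 start), which none of the 8 STAT5_High livers but 8 of 10 STAT5_Low livers had as a peak (exact p = 0.00105, adjusted 0.0657). Its peaks were weak, at 0.835, 1.09 and 1.71 ppm, or 16 to 29 tags. Without STAT5_Low replicate 4 or 6 its adjusted p was 0.0307 and 0.0291. The next was an intron region of Cyp2c29, which 7 of 8 STAT5_High livers had and only 1 of 10 STAT5_Low livers (exact p = 0.00288, adjusted 0.0996), at 0.899 to 1.7 ppm in STAT5_High and 1.09 in the 1 STAT5_Low liver. Without STAT5_High replicate 1 or STAT5_Low replicate 3 its adjusted p was 0.0342 and 0.033. Both regions thus sat near the threshold, in opposite directions, on weak peaks of at most 1.71 ppm. The authors' list called on pooled STAT5_High tags held a peak at the Cyp2d region, and their pooled STAT5_Low list held one at the Cyp2c29 region.

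A region upstream of Cyp2c70 was a peak for 5 of 8 STAT5_High livers and for 0 of 10 STAT5_Low livers (exact p = 0.00654, adjusted 0.137), with 3.18, 2.11, 3.28, 1.03 and 1.41 ppm in replicates 1, 3, 5, 7 and 8. A Cyp2u1 intron region (chr3:130998285-130998953) had 1 of 8 and 8 of 10 (adjusted 0.187). An intron region of Cyp2b13 (chr7:26867385-26868012) had 3 of 8 and 9 of 10 (adjusted 0.305), and a region in an untranslated exon of Cyp2c50 (chr19:40165591-40165928) had 4 of 8 and 2 of 10 (adjusted 0.673). These complete the 3 regions of smallest p in each direction. A missing peak means that no peak passed the q-value cutoff in that library, which does not show a closed site.

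The pileup comparison used regions with a peak in all 18 livers, 25 of the 138. It was fitted with limma on log2 pileup in ppm over 11748 regions with Benjamini-Hochberg adjustment. Of the 25, 3 were higher in STAT5_High (12%), where 3.86% of all tested regions were, and 0 were higher in STAT5_Low, where 0.238% were. The median log2 difference was -0.06 over the 25 and -0.17 over all 11748. Of the 25, 10 were positive, against 3013 of all 11748. When every liver was centred on its median region, the medians became 0.05 and -0.06. Then 13 of 25 were positive, against 4629 of all, and the same 3 regions passed. Over all 11748 regions 864 were higher in STAT5_High after centring, against 453 before.

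**Figure D3:**
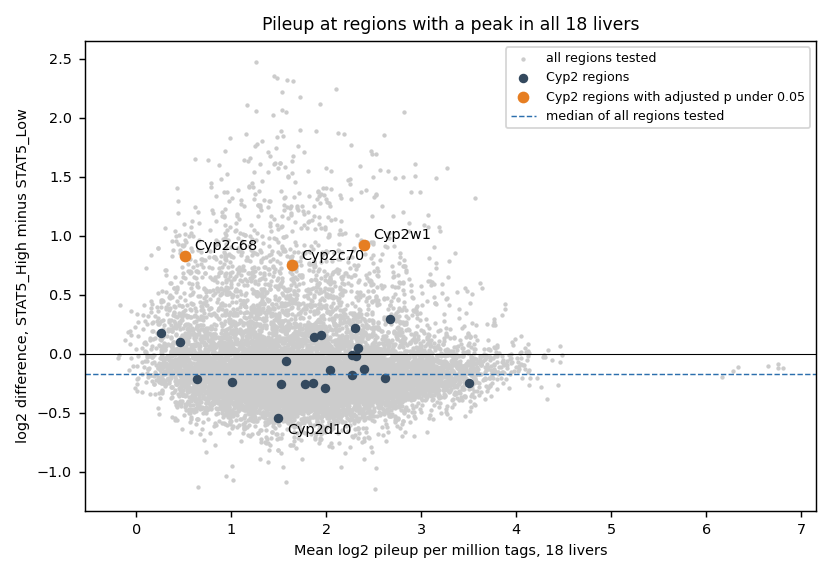
Log2 difference in pileup, STAT5_High minus STAT5_Low, against the mean log2 level for the 11748 regions with a peak in all livers (grey), with the 25 Cyp2 regions in dark blue and the 3 called in orange, named by their Cyp2 gene. The 3 called regions lie at 0.75 to 0.92, and the lowest Cyp2 point is the Cyp2d10 promoter at -0.54.

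The largest difference was 7148 bp downstream of Cyp2w1, in an intron of the neighbouring gene 3110082I17Rik (chr5:139840135-139841385). In STAT5_High livers its pileup was 4.62, 7.32 and 12.9 ppm (lowest, median, highest) and in STAT5_Low livers 2.86, 3.64 and 7.03. In 4 of 8 STAT5_High livers it was above every STAT5_Low liver, and all 8 were above the STAT5_Low median, but the groups overlapped. The mean log2 difference was 0.92 ± 0.23 (SE), or 1.9-fold, with an adjusted p of 0.00651 by limma, and 1.02 without STAT5_High replicate 4 (adjusted 0.000194). Its fold enrichment was also higher, with medians of 8.09 and 4.72 (adjusted p = 8.49e-05), while tags in the surrounding 10 kb did not differ beyond their spread (0.15 ± 0.19). Within G74A, G92 and G99 the pileup differences were 1.42, 0.92 and 0.56. The second Cyp2w1 region open in all livers, 5976 bp from the start (chr5:139834547-139835536), had -0.26 ± 0.24 (limma adjusted p = 0.599). Cyp2w1 had no promoter peak, and no value here ties the region to Cyp2w1 rather than to its host gene.

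The Cyp2c68 promoter (chr19:39815471-39815838) was the weakest of the 3. Its pileup was 1.43, 1.75 and 4.12 ppm in STAT5_High and 0.719, 1.02 and 2.2 in STAT5_Low livers, which is 23 to 69 and 13 to 42 tags. In 2 STAT5_High livers it was above every STAT5_Low liver and in 7 STAT5_Low livers below every STAT5_High liver. The difference was 0.83 ± 0.22, or 1.78-fold (limma adjusted p = 0.0164), and 0.68 without STAT5_High replicate 5, the highest liver (adjusted 0.087). By collection it was 0.95 in G74A and 1.54 in G92, but 0.06 in G99. Median fold enrichments were 10.8 and 6.6 (adjusted p = 0.0179), but the background here was at its genome-wide floor in 17 of 18 livers, so this ratio restates the pileup. In the region 71.7% of 40-base stretches were unique, and the gene body is among the least unique of the family. The neighbouring paralog Cyp2c67, whose promoter was also open in all 18 livers, had a difference of 0.10 ± 0.23 (adjusted p = 0.81); the difference between these paralogs was not tested.

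Cyp2c70, the bile acid hydroxylase that makes muricholic acids in mouse and rat, was the Cyp2 locus with the most signs of a difference. Its promoter (chr19:40261493-40262258) had 2.72, 4.28 and 7.34 ppm in STAT5_High and 1.71, 2.42 and 3.49 in STAT5_Low livers. In 5 STAT5_High livers it was above every STAT5_Low liver, and in 7 STAT5_Low livers it was below every STAT5_High liver. The difference was 0.75 ± 0.22, or 1.68-fold (limma adjusted p = 0.038), and by collection 0.41, 1.53 and 0.39 in G74A, G92 and G99. The adjusted p was above 0.05 in 11 of 18 fits that left out 1 liver (STAT5_High replicate 1, 3, 5 or 6, or STAT5_Low replicate 3, 4, 5, 6, 7, 9 or 10), and reached 0.137 without STAT5_High replicate 5. STAT5_High replicate 4, with the shortest list, had the second highest value, 6.55.

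The fold enrichment at the Cyp2c70 promoter did not differ beyond its spread, with medians of 7.79 and 8.28 and a log2 difference of 0.04 ± 0.13 (limma adjusted p = 0.938). This ratio divides by the local background, so the background was recovered from it: in MACS2 it equals the tags in a 10 kb window around the summit, or a genome-wide floor of 5.35 ppm where that is larger. Of the recovered values above the floor, 99.997% were whole tags within 0.05. Around the Cyp2c70 promoter the window held 15.8, 20.8 and 42.9 ppm in STAT5_High and 8.36, 13.7 and 16.4 in STAT5_Low livers, and 7 of 8 STAT5_High livers were above every STAT5_Low liver. The difference was 0.78 ± 0.17, or 1.72-fold (limma adjusted p = 0.0041), and 0.65 without STAT5_High replicate 5 (adjusted 0.0148). The window includes the peak itself and its neighbours, so the same tags add to both values.

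Other regions at Cyp2c70 were in STAT5_High livers only. Besides the region in 5 livers described above, regions beyond the 3′ end and upstream had peaks in 4, 2, 1 and 1 STAT5_High livers and in 0 STAT5_Low livers, and 1 region near the start in 6 and 6. STAT5_High replicate 5 had a peak at every one of the STAT5_High-only regions, and those found in a single liver were in this liver alone. It also had the highest promoter pileup, 7.34 ppm, and the highest window value, 42.9 ppm. The authors' list called on the pooled STAT5_High tags held 7 further peaks at Cyp2c70 that no single liver had. The pooled STAT5_Low list held none of this kind there, although it was called on 184748725 tags against 128701824. Between 10 and 50 kb from Cyp2c70, beyond the distance used for the family, 2 more regions were higher in STAT5_High. One lay 33474 bp upstream (chr19:40295297-40295848), at 3.42, 5.28 and 8.78 against 1.69, 2.3 and 3.71 ppm (1.09 ± 0.22, limma adjusted p = 0.000515). The other lay 44012 bp upstream inside the gene Pdlim1 (chr19:40305835-40307196), at 1.41, 7.23 and 11.5 against 1.07, 2.08 and 2.95 ppm (1.64 ± 0.27, adjusted p = 1.65e-05). Within 50 kb of Cyp2c44 a region inside Cpn1, 56485 bp from the Cyp2c44 start, was also higher (1.14, adjusted p = 0.000177), so that 6 of 45 tested regions within 50 kb of a Cyp2 gene were called higher in STAT5_High, where 3.86% of all tested regions were. The 3 regions beyond 10 kb were chosen after their values were seen.

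**Figure D4:**
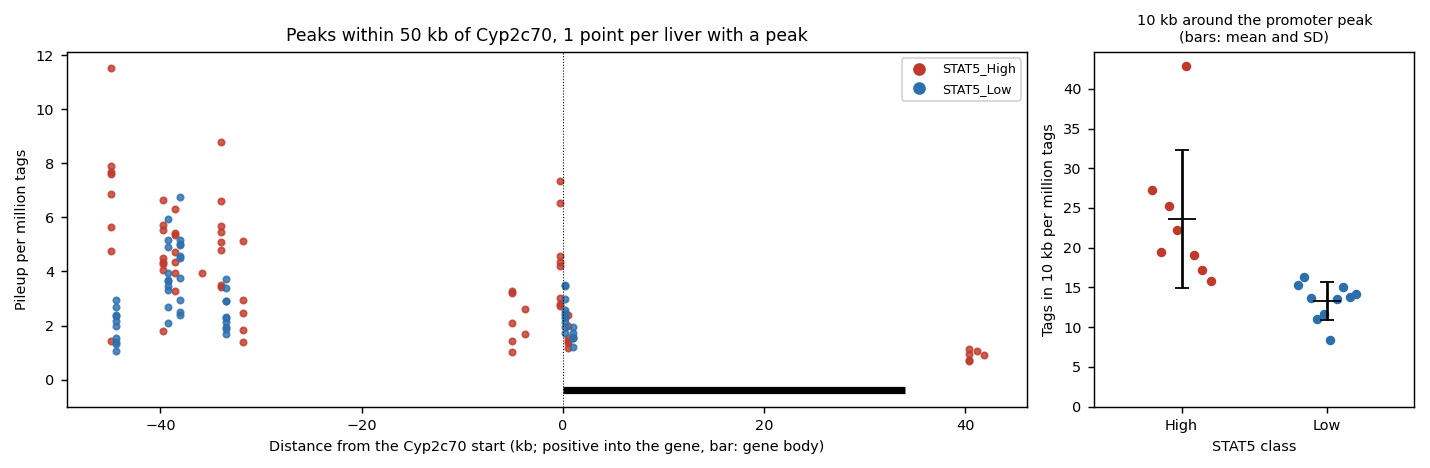
Left, pileup in ppm of every peak within 50 kb of Cyp2c70 (y axis), 1 point per liver with a peak, by distance from the start in kb (x axis, gene body as a black bar), STAT5_High in red and STAT5_Low in blue. Right, tags in the 10 kb window around the promoter peak in ppm, with mean and SD; STAT5_High livers lie at 15.8 to 42.9 and STAT5_Low livers at 8.36 to 16.4.

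The largest difference towards STAT5_Low was at the Cyp2d10 promoter (chr15:82237531-82238289). Its pileup was 0.834, 2.48 and 5.28 ppm in STAT5_High and 2.31, 3.25 and 4.72 in STAT5_Low livers. The groups overlapped, as STAT5_High replicate 1 had the highest value of all 18 and replicate 4 the lowest. The difference was -0.54 ± 0.24 (limma p = 0.0293, adjusted 0.299), with 0.25 in G74A, -1.39 in G92 and -0.34 in G99, and -0.33 without replicate 4 (adjusted 0.589). Tags in the 10 kb window there were lower in STAT5_High, at medians of 7.69 and 11.3 ppm (-0.54 ± 0.15, limma adjusted p = 0.0393), but the adjusted p was 0.0725 with a collection term and 0.0921 without STAT5_High replicate 5. In this measure 1 Cyp2 region of 25 was called in each direction, where 3.06% and 0.996% of all tested regions were called higher in STAT5_High and in STAT5_Low.

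**Figure D5:**
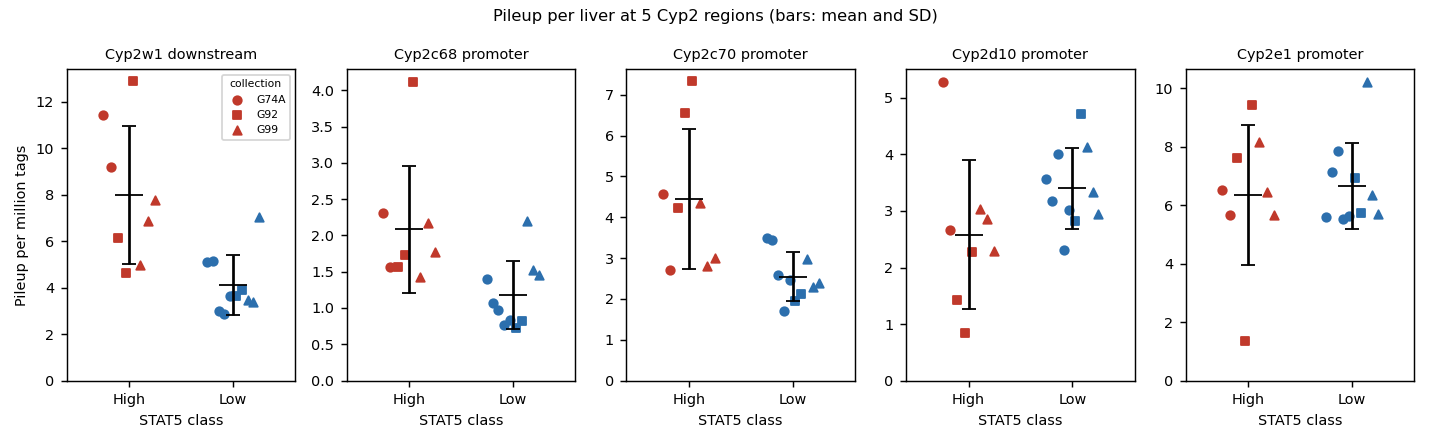
Pileup in ppm (y axis) in each liver at 5 Cyp2 regions, by STAT5 class (x axis) and collection (symbol), with mean and SD. The first 3 regions have adjusted p under 0.05, with STAT5_High medians of 7.32, 1.75 and 4.28 against 3.64, 1.02 and 2.42; the Cyp2d10 and Cyp2e1 promoters did not pass.

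By fold enrichment 3 of the 25 regions were higher in STAT5_High and 0 in STAT5_Low, where 3.15% and 0.238% of all tested regions were. These were the Cyp2w1 and Cyp2c68 regions and, in place of Cyp2c70, the region 9089 bp from Cyp2u1 (chr3:131015234-131015953), with 6.75, 9.65 and 13.6 in STAT5_High and 5.52, 6.94 and 8.36 in STAT5_Low livers (log2 difference 0.47, limma adjusted p = 0.0278). Its pileup had a difference of 0.22 ± 0.21 (adjusted p = 0.605) and its 10 kb window -0.30 ± 0.17 (adjusted p = 0.272). As the background at Cyp2c68 was at the floor, that call is the same as its pileup call. The other 21 regions that were called by neither measure had pileup differences between -0.54 and 0.29, and their 95% confidence intervals reached as far as -1.03 and 0.75, which is the size of difference that 18 livers could miss.

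The partners and regulators of the family were read from the same fits. The electron partners Por, Cyb5b and Cyb5r3, which pass electrons to P450 enzymes, had 30 regions, of which 0 of 3 tested for presence and 0 of 9 tested for pileup passed, and the pileup median was -0.33. The 20 regulators, among them Nr1i2, Nr1i3, Hnf4a, Cebpa, Ppara, Dbp and Stat5b, had 189 regions. Of 53 tested for presence, 2 had a peak more often in STAT5_High, near Foxa1 and Bcl6, and 1 in STAT5_Low, near Hlf, a factor that with Dbp and Tef sets the daily rhythm of P450 genes, where 0.979% and 0.134% of all tested regions were called in these directions. With collection as a stratum 0 of all 15631 regions were called in either direction, these 3 included. The smallest p of that stratified exact test was 0.000238, against 2.29e-05 by Fisher's exact test without strata. With p-values this coarse, the loss of the 3 calls cannot show whether they depend on collection. Of 39 tested for pileup 0 passed, and their median was -0.30, on a scale where all regions had -0.17.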

How the data were processed

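DNase-seq peaks of 8 STAT5_High and 10 STAT5_Low livers were analysed, grouped by the titles. Per the file headers, the authors called peaks in each liver with MACS2 2.1.0.20150731 on uniquely mapped mm9 reads of 40 bases, with no control library, a shift of -100, an extension of 200 bases and a q-value cutoff of 0.05; Bowtie2 is named in the submitters' processing notes. The deposited pileup is a signal, the extended tags over the summit, not scaled between libraries. The deposited fold enrichment is a ratio of that pileup to the background near the peak. The deposited -log10 q-value is the peak's own and was used only as a stricter threshold. Lists called on the pooled tags of each class were also deposited by the authors and were used only as named.

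Peaks overlapping by 1 bp or more were merged over the 18 livers into regions, assigned to genes within 10 kb, and pileup was given per 1000000 tags of the header, 12890880 to 23395665 per library. Presence was tested with Fisher's exact test on regions with a peak in 5 to 13 livers. Pileup was tested with limma 3.58.1 (R 4.3.3, trended prior) on log2 values, with no pseudocount, on regions with a peak in all 18 livers. Both used Benjamini-Hochberg adjustment over all regions tested and a threshold of 0.05, and both were tested on simulated data. The fold enrichment, tags in a 10 kb window, centring, a collection term, stricter peaks, other distances and leaving out each liver were alternatives; the window measure was chosen after seeing the data.

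Uniqueness of 40-base stretches was counted in the reference genome on both strands. Python 3.11.15 with pandas 2.3.3, scipy 1.17.1 and numba 0.67.0 was used. Regions named were those called, the 3 of smallest p in each direction and measure, the highest of each subfamily and the promoters. Members and lists were chosen with earlier results of these data known. Cyb5a, the fourth listed electron partner, was not matched in the annotation and was left out, as were 3 livers titled as outliers. The second Cyp2w1 region, the Cyp2c67 promoter and the regions beyond 10 kb fall outside this rule and were chosen after their values were seen. The sequences of some regions, 1 motif and 1 listed regulator are not reported here.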

Additional observations from a re-analysis of the deposited data

Results flagged for a closer look

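Of 58 groups of livers examined, 11 values of Cyp2 regions stood apart from the rest of their group by Dixon's 95% criterion. Chance meets this criterion in about 1 in 20 independent groups, but the groups here share the same livers. The Cyp2c and Cyp2d counts are also part of the Cyp2 count, so the 11 cannot be set against that rate. STAT5_High replicate 4 gave 4 of the 11 values, each the lowest of its group. It had a peak at 36 Cyp2 regions, where the next liver had 70, at 13 Cyp2c regions, where the next had 23, and at 7 Cyp2d regions, where the next had 17. Its Cyp2e1 promoter reached 1.35 per 1000000 tags and the next liver 5.66.

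STAT5_High replicate 5 was the highest of its group at 3 regions. The Cyp2c68 promoter had 4.12 per 1000000 tags, followed by 2.32, and 2 Cyp2u1 regions had 6.21 and 8.72, followed by 4.49 and 6.01. STAT5_High replicate 1 was highest at the Cyp2c67 promoter with 3.26, followed by 1.97, and at the region shared by Cyp2t4 and Egln2 with 20.8, followed by 12.1. Among STAT5_Low livers, replicate 7 had 4.95 at a region beyond the 3′ end of Cyp2c44, followed by 3.55, and replicate 8 had 10.2 at the Cyp2e1 promoter, followed by 7.84.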

How the results depend on the processing

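The count of Cyp2 regions called for presence was 0 in each direction under stricter peaks, equal list lengths, a 50% cover of the region and no filter. It was also 0 with strata of collection and at distances of 2 and 50 kb. When 1 liver was left out it ran from 0 to 1 in each direction. With strata, the smallest exact p was 0.000238 and 0 of all 15631 regions were called, so little can be read from that 0. The pileup count of 3 higher in STAT5_High was the same after centring, by fold enrichment, with a collection term and without the trended prior. After centring, 864 of all 11748 regions were called higher in STAT5_High. With a peak in at least 5 livers of each class the count was also 3, but more Cyp2 regions were tested. In that fit 1022 of all 27359 regions were called higher in STAT5_High. The main pileup count was 2 within 2 kb and 6 within 50 kb, where fewer or more regions are included. For tags in the 10 kb window it was 1, also with a collection term or without STAT5_High replicate 5, and 2 when centred, which added the Cyp2j5 region. With the window centred, 963 of all 11748 regions were called higher in STAT5_High and 441 higher in STAT5_Low. Leaving out 1 liver gave pileup counts of 1 to 3, the 1 being without STAT5_High replicate 5. The count higher in STAT5_Low was 0, except 1 for the window tags, centred or not. The cause was not tested.

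No region that was called changed sign under these alternatives. Regions that were not called did in 19 comparisons. By fold enrichment, Cyp2j5 went from 0.29 to -0.04, Cyp2t4 from -0.25 to 0.05, Cyp2e1 from -0.20 to 0.10 and Cyp2f2 from -0.01 to 0.10. In the 10 kb window the Cyp2u1 region went from 0.22 to -0.30, to -0.14 centred, -0.35 with a collection term and -0.37 without STAT5_High replicate 5. Cyp2f2 also reached 0.10 centred and 0.02 in the centred window. With 1 liver left out, Cyp2e1 ran from -0.31 to 0.09, Cyp2r1 from -0.39 to 0.02 and Cyp2f2 from -0.14 to 0.15, each highest without STAT5_High replicate 4. That liver alone turned the sign of Cyp2e1 and Cyp2r1, and 7 livers turned that of Cyp2f2.

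With the replicate block, 3 regions were higher in STAT5_High and 0 in STAT5_Low for pileup, and 0 and 0 for presence. For presence the block was a sign test, whose smallest p over all 15631 regions was 0.00781. It called 0 of them in either direction, so little can be read from the presence counts. The numbers share no animal, and same-numbered livers deviated together with correlations of -0.158 to 0.378; 2 of 8 correlated best with their own number.

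Among single regions, pileup results kept their direction and side of the threshold in 264 comparisons with an alternative, lost a call in 21 and gained one in 4; for presence 127 kept both and 4 gained a call.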

Other observations

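The lists called on pooled tags held further Cyp2 peaks that no single liver had. The authors' STAT5_High list had 130 peaks at Cyp2 genes, 17 of them in no liver's own list, and the STAT5_Low list had 147, of which 28 were in none. Among genes with no region in any liver, the pooled STAT5_Low list had 1 peak at Cyp2a5 and 1 at Cyp2j13. The pooled STAT5_Low list also had 4 further peaks at Cyp2j5, where the pooled STAT5_High list had 1.

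The letters TTCNNNGAA stood within 250 bases before the start of 1 of 47 Cyp2 genes, Cyp2j12 (2.13%, against 6.79% of genes), and TGTTTAC before 3, Cyp2c38, Cyp2c39 and Cyp2j5 (6.38%, against 2.7%). TTGCGCAA stood before 0 of the 47, against 0.163% of genes. These are counts of letters in windows and no measure of binding.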
